A study of Mus musculus with 8 samples.

Results

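The genes described here are the SR proteins and the hnRNP proteins of the mouse, the main families of RNA-binding proteins that set splice site choice. They were taken by symbol: every row of the deposited count table named Srsf or Hnrnp followed by the member's letters or number. The rule found 31 of 25815 genes, of which 11 were SR genes (Srsf1 to Srsf7 and Srsf9 to Srsf12) and 20 were hnRNP genes. All 31 passed the filter on low counts and were among the 16810 genes tested, with 88 to 12536 counts per gene and library.

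RNA came from total brain of mice that carry the D50A allele of Cstf2, which changes 1 residue in the RNA-binding motif of CSTF2, a subunit of the cleavage stimulation factor (5 libraries, D50A 1 to D50A 5), and of wild-type littermates (3 libraries, WT 1 to WT 3). All animals were untreated, aged 50 days, and came from 1 colony bred inside itself after 4 backcross generations to C57BL/6NCrl. The labels give no sex, litter or preparation batch. RNA was selected for poly(A) tails and sequenced in bulk, and gene counts per library summed to between 13675945 and 24802272 in D50A brains and between 16455364 and 20551906 in WT brains.

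SR proteins carry RNA recognition motifs and an arginine-serine domain, bind exonic enhancers and recruit U1 and U2 snRNP components to nearby splice sites. hnRNP proteins coat nascent transcripts and often act in the opposite sense by hiding splice sites or looping out exons. Many genes of both families limit their own output through alternative exons or introns that expose the transcript to nonsense-mediated decay. Several members, among them SRSF3, SRSF7, hnRNP A1, hnRNP C, hnRNP F/H and hnRNP L, also take part in choosing the cleavage and polyadenylation site, the step in which CSTF2 binds the U- or GU-rich element downstream of the cut.

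That step makes the transcript's end the sequence of interest, so the last 30 bases of the annotated transcripts are shown for the members on which the results turn (GENCODE M21 transcripts, build GRCm38/mm10, the build of the deposited counts). Letters are DNA letters of the transcript strand, 5′ to 3′, and capitals mark the polyadenylation signal AATAAA or its common variant ATTAAA. Hnrnpa1 is shown with both of its annotated ends, since the 3 protein-coding transcripts stop at the first and the 2 transcripts annotated to nonsense-mediated decay stop at the second. The first is at chr15:103244926-103244955, plus strand, and the second at chr15:103246663-103246692, plus strand. The other windows are at chr14:52073377-52073406, minus strand, for Hnrnpc, chr17:80200080-80200109, minus strand, for Srsf7, chr17:29043344-29043373, plus strand, for Srsf3, chr6:51461124-51461153, minus strand, for Hnrnpa2b1 and chr13:58391142-58391171, minus strand, for Hnrnpk, the last chosen as a member with neither hexamer.
Hnrnpa1, coding end: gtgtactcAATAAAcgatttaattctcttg
Hnrnpa1, decay-annotated end: tttttttttttaAATAAActttttaattaa
Hnrnpc: gagAATAAAgactgtggttctgtccctttt
Srsf7: tcAATAAAtctgcagagattgaacaaataa
Srsf3: ttattATTAAAagacactgacttaaagttg
Hnrnpa2b1: aagttttataaAATAAAtacttttgtatcc
Hnrnpk: cttgtaaggaaatacagtaatcttaaatta

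Searched on the transcript strand over the last 30 bases of each member's representative coding transcript, AATAAA was present in 20 of 31 members, ATTAAA without AATAAA in 4 and neither in 7. Across 18220 protein-coding genes of the table with such a window, AATAAA was present in 54.2%, ATTAAA in 12.7% and neither in 33.1%. The 7 members with neither were Hnrnph2, Hnrnpk, Hnrnpll, Srsf2, Srsf9, Srsf10 and Srsf11, and the missing letters speak only of the annotated end, not of the ends used in these brains. A transcript annotated to nonsense-mediated decay existed for 9 of 11 SR genes and 10 of 20 hnRNP genes, against 23.7% of 18243 protein-coding genes in the table. Gene counts sum all of these transcripts, so a shift between ends or between coding and decay forms is not measured by them.

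The libraries were not alike in ways that touch every value below. D50A 3 stood apart. CPM are counts per 1000000 counts of the library, with totals scaled by TMM. The 38 ribosomal protein genes averaged 10.09 log2 CPM there, against 7.31 to 7.58 in the other D50A libraries and 7.29 to 7.47 in WT, and the mitochondrially encoded genes averaged 11.45, against 9.16 to 9.66 in the other D50A libraries and 9.23 to 9.54 in WT. The 16 markers of cerebellar granule and Purkinje cells averaged 2.77 log2 CPM in D50A 1 and 5.50 to 5.88 in D50A 2 to D50A 5, against 2.78 to 2.89 in WT. Summed over the list this was between 343 and 2156 CPM for D50A and between 350 and 372 CPM for WT, and Gabra6, a granule cell receptor subunit, had no count in D50A 1 and in WT 1. The 10 general neuronal markers were high in every library, at 8.42 log2 CPM in D50A 3, 8.88 to 9.05 in the other D50A libraries and 8.96 to 9.06 in WT. D50A 3 was also apart in oligodendrocyte markers (9.97, against 8.96 to 9.10 in the other D50A libraries and 8.85 to 8.99 in WT), microglial markers (5.98, against 4.67 to 4.91 and 4.82 to 4.87), blood transcripts (7.61, against 4.94 to 5.69 and 5.11 to 5.71) and oligodendrocyte precursor markers (4.38, against 5.42 to 5.83 and 5.69 to 5.84). In bulk tissue, fewer cells of a type and less RNA per cell cannot be told apart. Results are therefore given on all 8 libraries and again without D50A 1 and D50A 3, where every remaining D50A library has the high cerebellar level and every WT library the low one, so that in this subset genotype and cerebellar transcripts cannot be told apart.

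Cstf2 itself had 105, 122, 65.8, 120 and 129 CPM in D50A 1 to 5 and 135, 126 and 122 CPM in WT 1 to 3. Its log2 fold change was -0.23 ± 0.22 (SE, adjusted p = 0.837), and that of Cstf2t, its autosomal paralog expressed in brain, was -0.10 ± 0.13 (SE, adjusted p = 0.837). A point mutation leaves the transcript countable, so these values do not check the genotype labels. Hnrnph2 lies on chromosome X with Cstf2, 514 kb away (chrX:134601179-134607060 against chrX:134059187-134086819), and is described with its family.

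On all 8 libraries, no SR or hnRNP gene passed an adjusted p of 0.05 in edgeR's quasi-likelihood test of D50A over WT, and neither did any other gene (percent called 0.0). At an unadjusted p under 0.05 there was 1 member, Hnrnpa1, against 2.5% of all genes. DESeq2 called 1 member, Hnrnpa1, lower in D50A, where it called 0.0364% of genes lower, and limma-voom, run with quality weights, also called 1 member lower, again Hnrnpa1, beside 1.2% of genes. Log2 fold changes ran from -0.35 for Hnrnpa1 to 0.47 for Hnrnpc. Their median was 0.05 over the 11 SR genes and -0.10 over the 20 hnRNP genes, beside -0.01 over all genes tested.

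**Figure D1:**
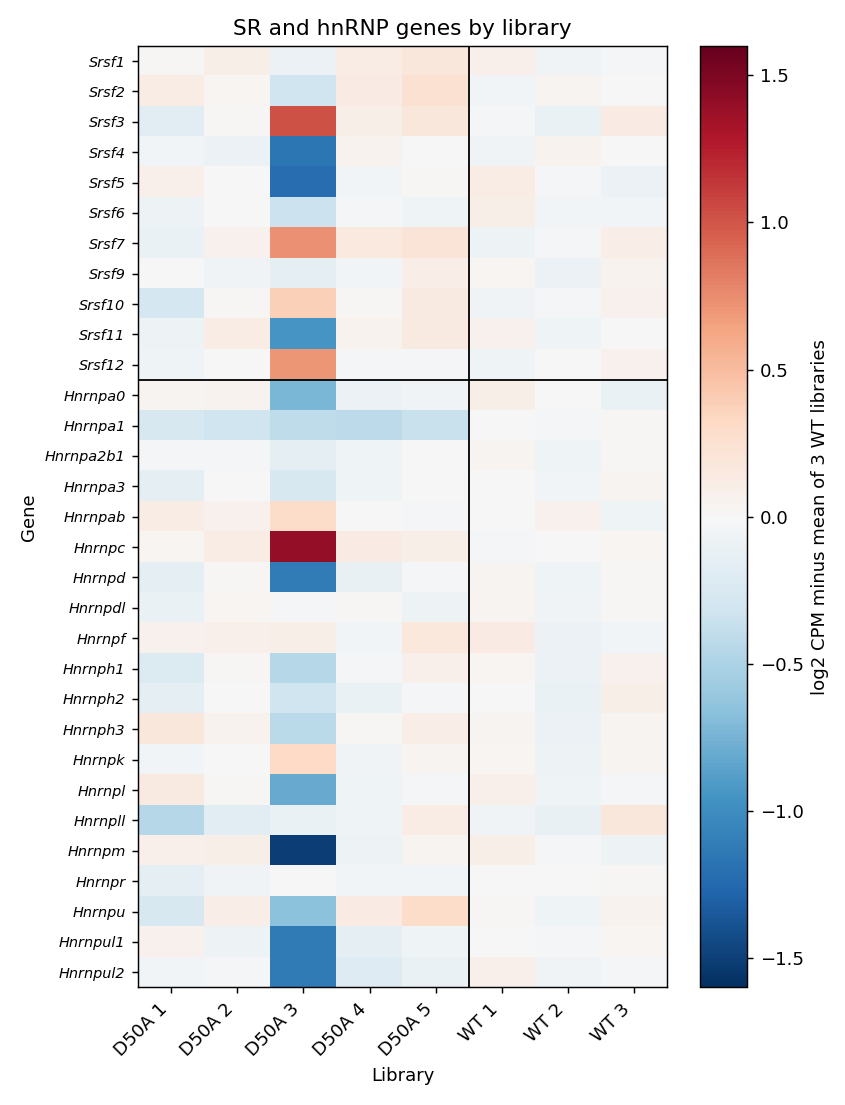
Log2 CPM of each of the 31 genes (rows, SR genes above hnRNP genes) in each library (columns, D50A left of WT), as the difference from the mean of the 3 WT libraries. The column of D50A 3 holds the widest deviations, from -1.51 for Hnrnpm to 1.41 for Hnrnpc. The rows of Hnrnpa1, Hnrnph2, Hnrnpr, Hnrnpul2 and Srsf6 are below the WT mean in all 5 D50A libraries. Every D50A library is below every WT library in 1 of the 31 rows, Hnrnpa1, against 4.24% of all genes tested.

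D50A 3 set most of the spread. It was the lowest library for 19 of the 31 members and the highest for 7, and for the 8947 genes at least as abundant as the least abundant member it was the lowest in 48.0% and the highest in 42.3%. With D50A 3 included, the log2 CPM of a member spanned a median of 0.63 over the libraries, against 1.11 for those 8947 genes. Without it the median span was 0.21, against 0.31. In the 7 other libraries 29 of 31 members stayed within 0.5 log2 units, the exceptions being Hnrnpll with 0.63 and Hnrnpu with 0.55. The deviations of the 31 members from the WT mean had a Spearman correlation with the GC content of the transcript of 0.61, -0.0278, -0.353, -0.165 and -0.292 in D50A 1 to 5 and 0.263, 0.35 and -0.593 in WT 1 to 3. With transcript length it ran from -0.531 in D50A 5 to -0.00403 in D50A 3 over the D50A libraries and from -0.215 to 0.247 in WT. These are descriptions over 31 genes that share 1 library each time.

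Among the SR proteins with a single RNA recognition motif, SRSF3 and SRSF7 are close paralogs that shuttle to the cytoplasm and promote mRNA export. Srsf3 had 113, 130, 261, 137 and 145 CPM in D50A 1 to 5 and 126, 119 and 140 CPM in WT 1 to 3. Srsf7 had 85.9, 97.0, 154, 103 and 106 CPM in D50A 1 to 5 and 87.4, 91.3 and 99.4 CPM in WT 1 to 3. In both genes D50A 3 was the highest library and D50A 1 the lowest, and the groups overlapped. The log2 fold changes were 0.29 ± 0.28 for Srsf3 and 0.24 ± 0.20 for Srsf7 (SE, adjusted p = 0.837 each), and 0.11 ± 0.07 and 0.16 ± 0.07 without D50A 1 and D50A 3 (adjusted p = 0.351 and 0.165). The direction of Srsf3 did not hold with a surrogate variable in the model, at -0.01. Counts of Srsf7 over counts of Srsf3, a ratio free of any scaling, were 0.760, 0.746, 0.589, 0.752 and 0.733 in D50A 1 to 5 and 0.694, 0.765 and 0.709 in WT 1 to 3. Apart from D50A 3, the ratio of the pair overlapped between the groups. Srsf2, the nuclear member SC35, had 77.4 ± 10.9 CPM in D50A and 74.7 ± 2.13 CPM in WT (SD, n = 5 and 3).

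The SR proteins with a second, pseudo-recognition motif include the founding member SRSF1 and the most abundant SR transcript of these brains, Srsf5. Srsf5 had 344, 327, 139, 315 and 328 CPM in D50A 1 to 5 and 353, 319 and 305 CPM in WT 1 to 3. D50A 3 had less than any other library by a wide gap, and the other 4 D50A libraries lay within the WT range. The log2 fold change was -0.16 ± 0.28 on all libraries and 0.01 ± 0.06 without D50A 1 and D50A 3 (SE, adjusted p = 0.843 and 0.969). Srsf4, the scarcest SR gene per kb, was likewise low in D50A 3, at 8.14 CPM against 17.1 to 19.0 in the other D50A libraries and 17.6 to 19.0 in WT. Srsf1, Srsf6 and Srsf9 had log2 fold changes of 0.07, -0.10 and -0.03 on all libraries and 0.15, -0.02 and 0.02 without D50A 1 and D50A 3.

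SR-like members differ in how they act: SRSF10 is a repressor that is activated by dephosphorylation, SRSF11 promotes the inclusion of neuronal microexons, and SRSF12 is a paralog of SRSF10. Srsf11 was low in D50A 3 (106 CPM, against 193 to 226 in the other D50A libraries and 195 to 214 in WT) whereas Srsf10 and Srsf12 were high there (98.6 and 39.0 CPM, against at most 84.1 and 24.0 in the other D50A libraries and 79.7 and 25.01 in WT). The log2 fold changes were 0.07 for Srsf10, -0.09 for Srsf11 and 0.15 for Srsf12, and 0.08, 0.12 and 0.01 without D50A 1 and D50A 3. None passed the adjusted threshold in either fit.

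hnRNP A1 is an abundant exon-skipping factor that binds UAG-containing sites and is mutated in inherited forms of motor neuron disease. Hnrnpa1 (ENSMUSG00000046434, chr15:103240432-103246692, plus strand) had 192, 183, 173, 171.1 and 179 CPM in D50A 1 to 5 and 231, 224 and 232 CPM in WT 1 to 3. Every D50A library was below every WT library, and the means were 180 ± 8.23 CPM in D50A and 229 ± 4.65 CPM in WT (SD, n = 5 and 3). Such a separation with D50A below was found for 1 of 31 members and for 4.24% of all genes tested, shares that are close to each other, so the separation alone does not set the family apart. The reverse separation was found for 0 members and for 3.22% of genes.

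The log2 fold change of Hnrnpa1 was -0.35 ± 0.12 (SE) on all libraries, with an adjusted p of 0.837 from edgeR over all genes. Its size was nearly the same in every one of 21 alternative analyses, from -0.39 to -0.32, but it passed the threshold in 5 of them, with adjusted p from 1.76e-07 to 0.965. The adjusted p was 0.0078 in DESeq2 and 0.0037 in limma-voom with quality weights. It was 9.46e-04 without D50A 1 and D50A 3, and it was 0.184 without D50A 3 alone and 0.68 without D50A 1 alone. D50A 1, with as few cerebellar transcripts as WT, had 192 CPM, the D50A value nearest to WT, against 171.1 to 183 CPM in D50A 2 to D50A 5. D50A 3, with ribosomal protein and mitochondrial transcripts in excess, had 173 CPM. Both values were below the lowest WT value of 224 CPM. Whether the cerebellar share has a part in the level was not tested.

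Raw counts of 2 genes in 1 library can be divided with no scaling, and this was done for Hnrnpa1 after its values were seen, so no test is given. Counts of Hnrnpa1 over counts of its closest abundant paralog Hnrnpa2b1 were 0.393, 0.374, 0.388, 0.365 and 0.363 in D50A 1 to 5 and 0.453, 0.476 and 0.463 in WT 1 to 3. The ratio averaged 0.377 ± 0.0134 in D50A and 0.464 ± 0.0113 in WT (SD, n = 5 and 3), and no D50A library reached the lowest WT library. Over Hnrnpa3 the ratio was 0.616 to 0.738 in D50A and 0.781 to 0.802 in WT, and over Hnrnpk it was 0.446 to 0.633 in D50A and 0.722 to 0.760 in WT. With these partners the separation was also present in D50A 3, where the scaled values of many members deviate. In that library it depends on the partner. Hnrnpa0 and Hnrnpd were low in D50A 3 (95.1 and 51.9 CPM, against 148 to 168.7 and 108 to 116 CPM in WT). Over either of these genes, the Hnrnpa1 ratio of D50A 3 was above that of every WT library.

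**Figure D2:**
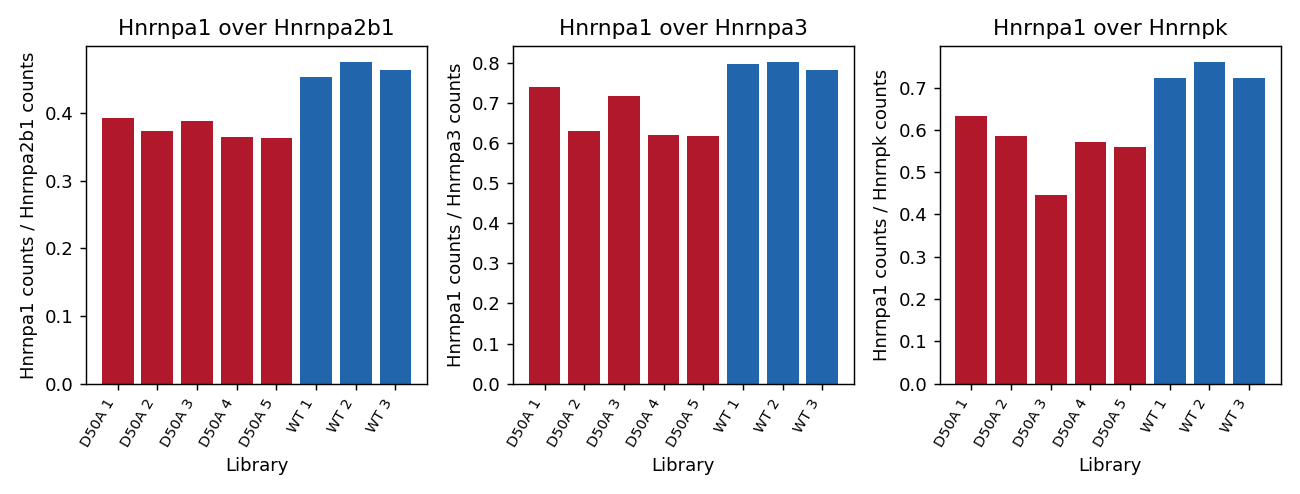
Raw counts of Hnrnpa1 divided by raw counts of Hnrnpa2b1, Hnrnpa3 and Hnrnpk in the same library (1 bar per library, D50A left in red, WT right in blue, axes from 0). In each panel all 5 D50A bars are below all 3 WT bars, and for Hnrnpa2b1 the D50A bars lie between 0.363 and 0.393 and the WT bars between 0.453 and 0.476.

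The Hnrnpa1 coding sequence has 16 near-identical copies in the annotation (at least 90% identity over at least 300 bases), 15 of them pseudogenes. The 9 copies in the count table together held 3 to 13 counts per library in D50A and 6 to 13 in WT, at most 0.359% of the number of counts assigned to Hnrnpa1. This does not measure reads of copies that were assigned to Hnrnpa1, and reads that match several copies equally well may have been dropped by the counting, whose rule for such reads no source used here states. Upstream of Hnrnpa1, 615 bases away on the opposite strand, starts Cbx5, which encodes the heterochromatin protein HP1 alpha. It had 223, 239, 181, 241 and 257 CPM in D50A 1 to 5 and 249, 251 and 271 CPM in WT 1 to 3, a log2 fold change of -0.17 ± 0.16 (SE, adjusted p = 0.837), and -0.05 without D50A 1 and D50A 3 (adjusted p = 0.66). Downstream, Copz1, a coatomer subunit gene 26021 bases away, had a log2 fold change of 0.10 ± 0.18 (SE, adjusted p = 0.852) and -0.07 without D50A 1 and D50A 3 (adjusted p = 0.543). The groups overlapped for both neighbours.

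The relatives of Hnrnpa1 in the A/B and D type did not share its separation. Hnrnpa2b1, whose protein binds trafficking elements in neuronal mRNAs, had 488, 488, 446, 469 and 494 CPM in D50A 1 to 5 and 509, 470 and 501 CPM in WT 1 to 3. Hnrnpa0, the single-exon member, had 163, 164, 95.1, 149 and 153 CPM in D50A 1 to 5 and 168.7, 160 and 148 CPM in WT 1 to 3. Apart from the low Hnrnpa0 value of D50A 3, both genes overlapped between the groups, with log2 fold changes of -0.05 ± 0.13 and -0.13 ± 0.20 (SE, adjusted p = 0.883 and 0.837). Hnrnpd encodes AUF1, which binds AU-rich elements and promotes mRNA decay. It had 101, 114, 51.9, 104 and 110 CPM in D50A 1 to 5 and 116, 108 and 114 CPM in WT 1 to 3, and D50A 3 was at less than any other library. Hnrnpab, a paralog of Hnrnpd, had 64.7, 62.7, 73.1, 59.8 and 58.4 CPM in D50A 1 to 5 and 59.4, 62.5 and 57.0 CPM in WT 1 to 3. Log2 fold changes were -0.23 ± 0.25 for Hnrnpd and 0.10 ± 0.13 for Hnrnpab (SE, adjusted p = 0.837 each), and -0.03 and 0.03 without D50A 1 and D50A 3. Hnrnpa3 and Hnrnpdl had -0.09 and -0.03 on all libraries and 0.00 and 0.01 in the reduced set.

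hnRNP C binds uridine tracts as a tetramer and keeps cryptic exons of Alu repeats out of human mRNAs. Hnrnpc had 192, 204, 498, 205 and 200 CPM in D50A 1 to 5 and 184, 187 and 192 CPM in WT 1 to 3. D50A 3 was far above every other library, D50A 2, 4 and 5 were above the highest WT library, and D50A 1 was within the WT range. The log2 fold change of 0.47 ± 0.35 (SE, adjusted p = 0.837) shrank to 0.10 once D50A 3 was left out, and it was 0.13 ± 0.05 in the set that also omits D50A 1 (SE, adjusted p = 0.176). Copies of Hnrnpc held 1.06% to 1.54% of its counts in D50A and 0.99% to 1.27% in WT.

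**Figure D3:**
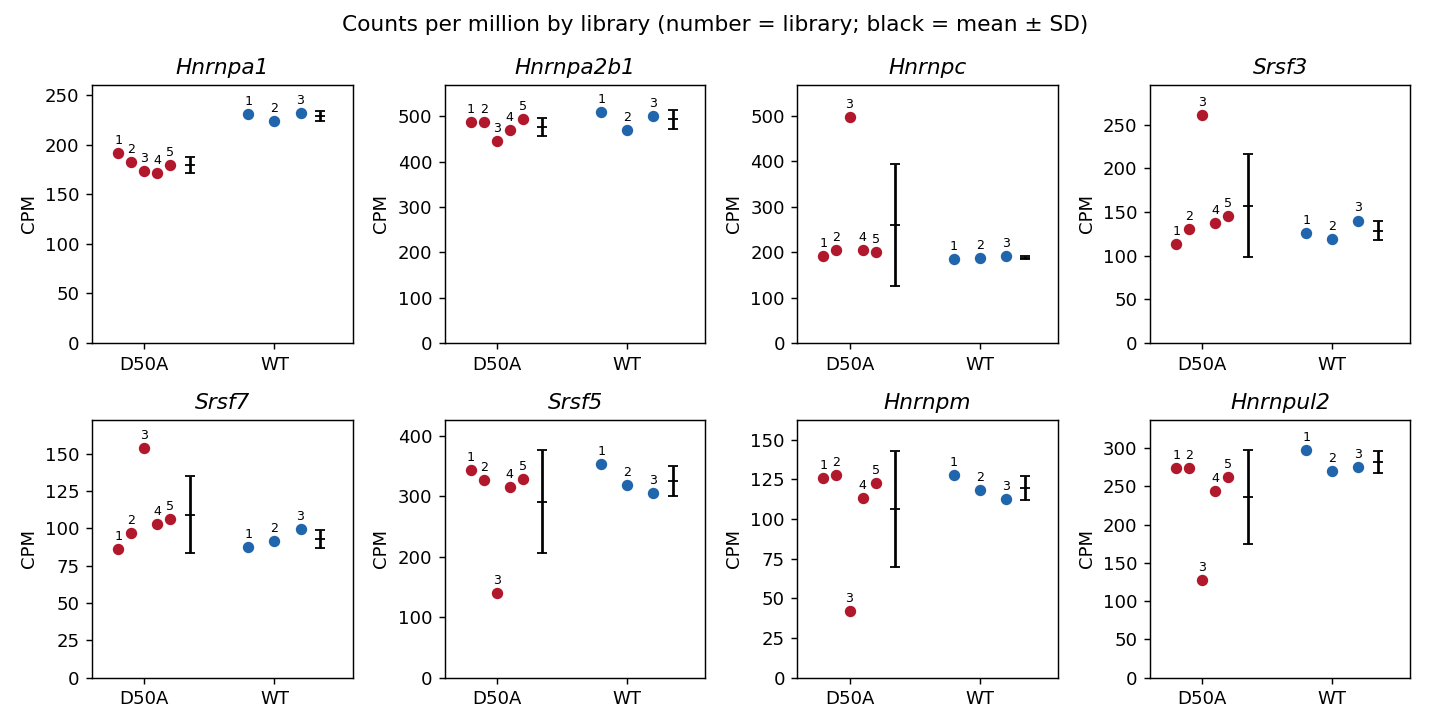
CPM of 8 genes in each library (points, numbered by library, D50A left in red, WT right in blue), with the mean ± SD of each group in black and all axes from 0. Hnrnpa1 has no overlap between groups, whereas in Hnrnpc, Srsf3 and Srsf7 the single D50A 3 point is high (498, 261 and 154 CPM) and in Srsf5, Hnrnpm and Hnrnpul2 it is low (139, 41.8 and 128 CPM).

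The hnRNP F/H proteins bind guanine runs near exons and polyadenylation sites. Hnrnph2, the X-linked member near Cstf2, is a gene in which human variants cause a neurodevelopmental disorder. It had 121, 134, 107, 124 and 132 CPM in D50A 1 to 5 and 135, 124 and 143 CPM in WT 1 to 3. The groups overlapped, and the log2 fold change was -0.12 ± 0.14 on all libraries and -0.03 ± 0.06 without D50A 1 and D50A 3 (SE, adjusted p = 0.837 and 0.826). Counts of Hnrnph1 over Hnrnph2 averaged 2.25 ± 0.161 in D50A and 2.24 ± 0.0392 in WT (SD, n = 5 and 3). Hnrnpf, Hnrnph1 and Hnrnph3 had log2 fold changes of 0.07, -0.11 and -0.00, none past the threshold.

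Of the other hnRNP genes, Hnrnpm encodes a splicing regulator that binds GU-rich sites. It had 126, 128, 41.8, 113 and 123 CPM in D50A 1 to 5 and 128, 118 and 113 CPM in WT 1 to 3, the widest span of any member, and D50A 3 alone made it so. Hnrnpll, a relative of hnRNP L known for CD45 splicing in lymphocytes, had 55.9, 67.8, 70.9, 72.8 and 83.3 CPM in D50A 1 to 5 and 73.3, 70.5 and 86.5 CPM in WT 1 to 3. Here the lowest value was in D50A 1 and the groups overlapped, with a log2 fold change of -0.13 ± 0.16 (SE, adjusted p = 0.837). Hnrnpl, Hnrnpk and Hnrnpr had log2 fold changes of -0.11, 0.06 and -0.06, with Hnrnpl lowest in D50A 3 (136 CPM) and Hnrnpk highest there (388 CPM).

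The scaffold-attachment hnRNP U proteins bind both RNA and chromatin, and loss of one copy of human HNRNPU causes epilepsy with developmental delay. Hnrnpul2 had 274, 274, 128, 244 and 262 CPM in D50A 1 to 5 and 298, 270 and 276 CPM in WT 1 to 3. Hnrnpul1 had 106, 94.8, 45.7, 91.3 and 96.3 CPM in D50A 1 to 5 and 100, 98.9 and 102 CPM in WT 1 to 3. D50A 3 was the lowest library for both genes, and at least 1 other D50A library was within or above the WT range. The log2 fold changes were -0.25 ± 0.25 for Hnrnpul2 and -0.21 ± 0.25 for Hnrnpul1 (SE, adjusted p = 0.837 each), and -0.10 and -0.08 without D50A 1 and D50A 3. Hnrnpu had a log2 fold change of -0.04 ± 0.22 on all libraries and 0.19 ± 0.06 in the reduced set (SE, adjusted p = 0.945 and 0.0866), the next largest size in that set after Hnrnpa1. It was low in D50A 1 (115 CPM) and D50A 3 (86.8 CPM), the libraries left out there, against 147 to 167.8 CPM in the other D50A libraries and 130 to 142 in WT.

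Without D50A 1 and D50A 3, edgeR called 1 member at an adjusted p of 0.05, Hnrnpa1, lower in D50A, against 3.06% of all genes called lower. The same member was called lower in this reduced set with GC and length offsets (adjusted p = 5.58e-05, against 4.6% of genes) and with DESeq2 (adjusted p = 1.76e-07, against 3.69% of genes), both chosen after seeing the data. No member was called higher, against 3.36% of all genes. Of the 31 members, 30 had a log2 fold change within 0.2 of 0, and SE ran from 0.053 to 0.084, compared with 0.116 to 0.349 on all libraries. At an unadjusted p under 0.05 there were 6 members higher (Hnrnpc, Hnrnpu, Srsf1, Srsf2, Srsf7 and Srsf11) and 1 lower, against 11.1% and 11.2% of all genes. The median log2 fold change was 0.08 over the SR genes, -0.00 over the hnRNP genes and 0.00 over all genes tested. Positive values were found for 10 of 11 SR genes and 10 of 20 hnRNP genes, and for 7 and 6 with GC and length offsets. The median was then 0.02 over the SR genes, -0.05 over the hnRNP genes and -0.02 over all genes tested. With these offsets Hnrnpu alone of the 6 had an unadjusted p under 0.05 with a positive sign, against 9.43% of all genes. Its log2 fold change was then 0.13, and those of Srsf2, Srsf1, Srsf7, Srsf11 and Hnrnpc were 0.12, 0.10, 0.09, 0.07 and 0.06. Summed CPM of SR genes over that of hnRNP genes was 0.362, 0.364, 0.364, 0.382 and 0.381 in D50A 1 to 5 and 0.356, 0.356 and 0.348 in WT 1 to 3. Every D50A value of this ratio was above every WT value, and no test is given for it, since it was looked at with the values known. The margin was small, 0.362 in D50A 1 against 0.356 in WT 2, and how often other gene sets separate in this way was not looked at.

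**Figure D4:**
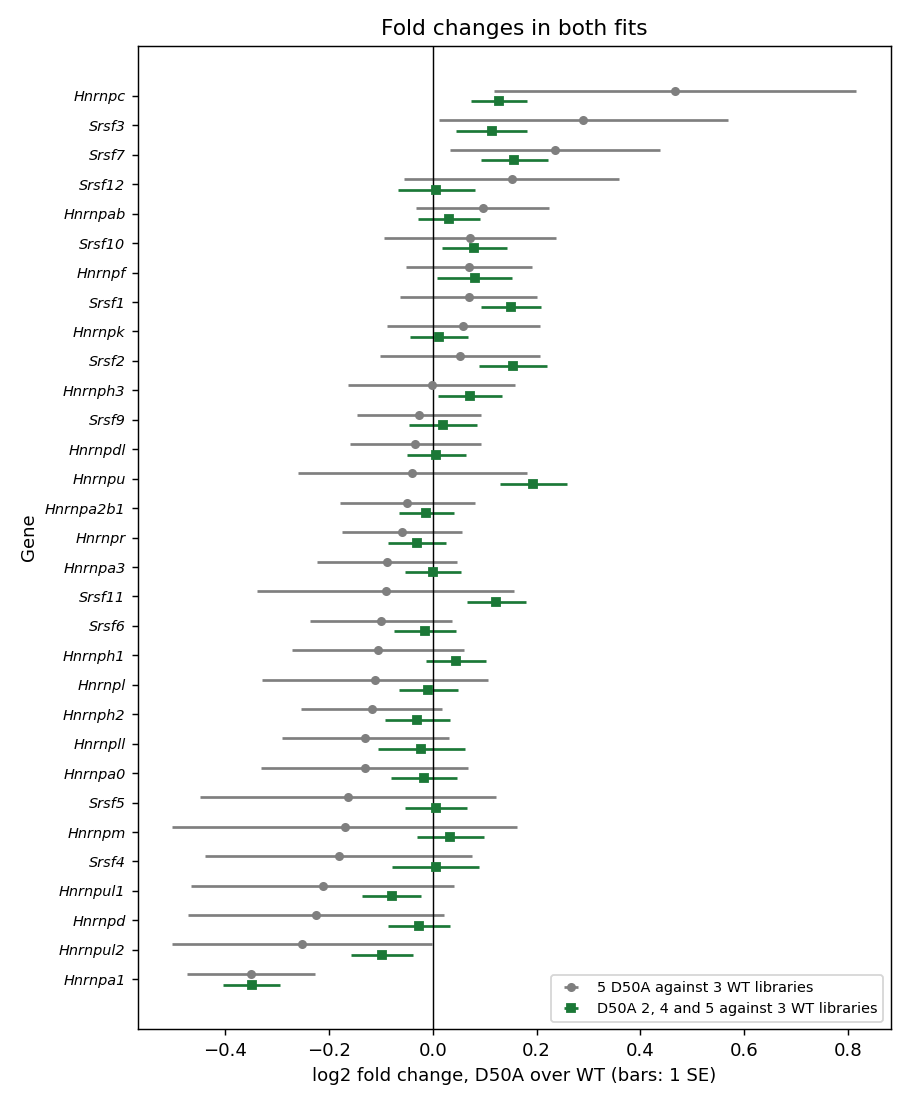
Log2 fold change of D50A over WT for each gene, with 1 SE on each side, on all 8 libraries (grey circles) and without D50A 1 and D50A 3 (green squares), ordered by the first. Most points lie closer to 0 and have shorter bars in the second fit, while Hnrnpa1 is at -0.35 in both.

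Levels of different genes were compared per kb of merged exons, ordered by the mean of all 8 libraries. Srsf5 averaged 72.9 ± 21.4 CPM per kb in D50A and 81.7 ± 6.22 in WT, Hnrnpa2b1 72.5 ± 3.02 in D50A and 75.0 ± 3.14 in WT, and Hnrnpa1 56.9 ± 2.61 in D50A and 72.6 ± 1.48 in WT (SD, n = 5 and 3). Hnrnpa0 was next in that order, with 54.1 ± 10.7 in D50A and 59.3 ± 3.94 in WT, although Hnrnpc, through D50A 3, averaged 60.1 ± 30.9 in D50A, above both Hnrnpa1 and Hnrnpa0, and 43.5 ± 0.895 in WT. Hnrnpa1 was below Hnrnpa2b1 in every library of both groups, and the per-library ranges of these neighbours in the order were apart in D50A (54.3 to 60.8 against 67.7 to 75.0 CPM per kb) and overlapped in WT (70.9 to 73.7 against 71.4 to 77.3 CPM per kb). Srsf4 and Hnrnpr were lowest, at 4.504 ± 1.25 and 4.30 ± 0.172 CPM per kb in D50A and 5.12 ± 0.201 and 4.49 ± 0.050 in WT. The order depends on the length used: per kb of the mean annotated transcript, the highest 4 were Hnrnpa2b1, Hnrnpk, Hnrnph1 and Srsf5, and Hnrnpa1 ranked 10.

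**Figure D5:**
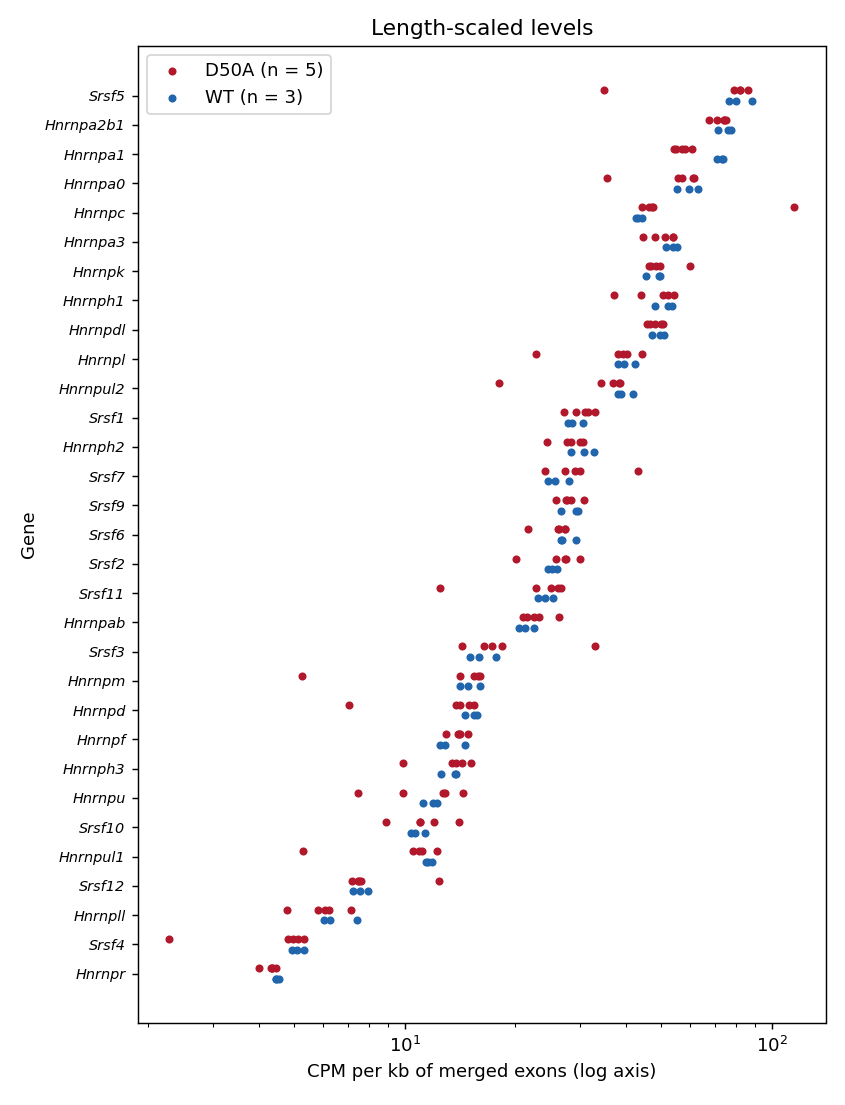
CPM per kb of merged exons (log axis) for each of the 31 genes, 1 point per library, with D50A in red above WT in blue. Group means range from about those of Hnrnpr, at 4.30 in D50A and 4.49 in WT, to those of Srsf5, at 72.9 in D50A and 81.7 in WT. Single points reach further, from 2.29 for Srsf4 to 115 for Hnrnpc, both in D50A 3, and the stray red point of many rows is D50A 3.

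Some members share exon bases or near-identical sequence with other genes, and no source used here states whether the counting used strand. Exons of 10 members overlap a gene that is in the table, by 43.0% of the exon bases of Srsf4 with Gm12992, 29.1% of Hnrnpab with Phykpl and 15.6% of Srsf2 with Mettl23, on the opposite strand, and by 14.7% of Hnrnpm with March2 on the same strand, which strand cannot tell apart. The antisense gene Gm12992 at the Srsf4 locus was counted at 10.2% to 26.6% of the Srsf4 counts in D50A and 21.6% to 28.3% in WT. Near-identical copies elsewhere in the genome were counted at over 2% of a member's counts in some library for 2 members, Hnrnpf and Hnrnpk, and for Hnrnpk this was 3.6% to 4.26% in D50A and 3.65% to 4.44% in WT. These shares do not bound the reads dropped or assigned to the other gene, and the values of these members are uncertain.

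The wider splicing machinery gave no call on all 8 libraries in edgeR. Of 50 tested core spliceosome genes, 29 SR-related genes, 22 kinases, phosphatases, methyltransferases and import factors that modify SR and hnRNP proteins, 33 hnRNP relatives and 20 genes of nonsense-mediated decay and the exon junction complex, none passed an adjusted p of 0.05 or an unadjusted p of 0.05. DESeq2 called none of them either, and limma-voom with quality weights called 1 of the 154, Rbm3, higher. That is 0.649% of these genes, beside 1.87% of all genes, so it is no result about the lists. Median log2 fold changes were -0.04, -0.12, -0.14, -0.03 and -0.13, and 0.02, 0.02, -0.01, 0.04 and -0.02 without D50A 1 and D50A 3.

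The 3 genes with the smallest p of each list had these values. In the core spliceosome, the U2 snRNP protein gene Snrpa1, the SF3B subunit gene Sf3b5 and the 3′ splice site reader U2af1 had log2 fold changes of 0.57 ± 0.33, 0.86 ± 0.51 and 0.33 ± 0.20 (SE, adjusted p = 0.837 each). Among SR-related genes, the SR-like regulator Tra2b, the U1-associated Luc7l2 and Srek1 had 0.25, -0.28 and -0.31. The kinase gene Dyrk2 had -0.30, the arginine methyltransferase gene Prmt1 0.38 and the SR kinase gene Srpk3 -0.43. Among decay factors, Upf2, the termination factor gene Gspt1 and the junction complex gene Magohb had -0.28, -0.23 and 0.72. None of these passed the adjusted threshold in either fit, and D50A 3 was the highest library for Snrpa1, Sf3b5, U2af1, Tra2b, Prmt1 and Magohb. Every D50A library was above every WT library for Snrpa1 (20.2 to 50.7 against 17.4 to 19.2 CPM) and below for Upf2 and Gspt1. The groups overlapped for the other genes named here. Such separations were found for 3.22% (above) and 4.24% (below) of all genes tested. These genes were picked by their p, so this is no result about the lists.

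Rbm3, a cold-inducible RNA-binding protein gene among the hnRNP relatives, had 57.4, 65.5, 139, 74.8 and 90.4 CPM in D50A 1 to 5 and 48.9, 51.9 and 62.2 CPM in WT 1 to 3. D50A 1 lay within the WT range and the other D50A libraries above it, with a log2 fold change of 0.65 ± 0.29 (SE, adjusted p = 0.837), and 0.52 ± 0.10 without D50A 1 and D50A 3 (SE, adjusted p = 0.00673). The paraspeckle gene Pspc1 and the poly(C)-binding protein gene Pcbp4 had log2 fold changes of 0.21 ± 0.12 and 0.25 ± 0.14 (SE, adjusted p = 0.837 each). For both genes every D50A library was above every WT library. Without D50A 1 and D50A 3, 3 of the 154 genes (1.95%) were called higher, below the 3.36% of all genes. Besides Rbm3 these were the hnRNP relative Raly, by 0.26 ± 0.06 (SE, adjusted p = 0.0148), and the decay kinase Smg1, by 0.39 ± 0.07 (SE, adjusted p = 0.00217). Raly had 66.0, 68.3, 156, 69.4 and 68.5 CPM in D50A 1 to 5 and 60.9, 58.2 and 55.2 CPM in WT 1 to 3. Every D50A library, also D50A 1, was thus above every WT library for Raly. Its log2 fold change on all libraries was 0.56 (adjusted p = 0.837). Smg1 had 196, 300, 65.2, 341 and 344 CPM in D50A 1 to 5 and 235, 254 and 269 CPM in WT 1 to 3. It was thus below WT in the 2 libraries left out and above WT in the 3 that remained.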

How the data were processed

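Poly(A)-selected RNA of total brain was sequenced from 5 D50A and 3 wild-type mice. The values deposited by the authors are whole-number counts of reads for each gene, not normalized. The submitters' processing notes name the build mm10 and the tools HTSeq 0.6.1, STAR 2.5, CASAVA 1.8 and DESeq2 2, in no stated order. No source used here states how strand was set or which annotation release was counted.

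Groups came from the genotype label, and the replicate numbers follow accession order and pair nothing. The labels name no litter or batch, so p-values measure only the spread between these libraries. All 8 libraries were fitted with edgeR 4.0.16 in R 4.3.3 (filterByExpr, TMM, quasi-likelihood F test, Benjamini-Hochberg over 16810 genes, threshold 0.05). The SE is the log2 fold change over the square root of F. CPM use TMM-scaled totals (a prior count of 2 on the log2 scale). Alternatives used DESeq2 1.42.0, limma 3.58.1 (voom), sva 3.50.0 and mgcv 1.9.3 for GC and length offsets. The basic edgeR, DESeq2 and limma-voom fits on 8 libraries were run on simulated data with known changes. The offsets, the surrogate variable and the sets with libraries left out were not. No simulated library was made to stand apart as D50A 3 does. GENCODE M21 gave positions, lengths and transcript ends, and blastn 2.17.0 found copies. The representative transcript was the principal coding one, then one with a consensus coding sequence, then the longest.

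The members and the lists were chosen with earlier results of these data known. Per-library values were given for the 10 members with the smallest p, the 4 with the highest length-scaled level and the 4 with the widest log2 CPM range, and from each splicing list the 3 genes with the smallest p were named. Raly and Smg1, the neighbours of Hnrnpa1 and the count ratios were chosen after their values were seen. Among the hnRNP relatives, Ralyl stands for 2 gene IDs.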

Additional observations from a re-analysis of the deposited data

Results flagged for a closer look

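In 14 of the 31 SR and hnRNP genes, 1 D50A library stood apart from the other 4 by Dixon's gap test, and it was D50A 3 each time. Chance alone sets such a mark in about 1 in 20 groups, but the genes share their libraries. Among the 8947 genes at least as abundant as the least abundant member, D50A 3 stood apart in the same way in 50.1%, beside 45.2% of the members, so the mark is not particular to them. D50A 3 was low for Hnrnpa0 (95.1 CPM), Hnrnpd (51.9 CPM), Hnrnpl (136 CPM), Hnrnpm (41.8 CPM), Hnrnpul1 (45.7 CPM), Hnrnpul2 (128 CPM), Srsf4 (8.14 CPM), Srsf5 (139 CPM), Srsf6 (104 CPM) and Srsf11 (106 CPM). It was high for Hnrnpc (498 CPM), Hnrnpk (388 CPM), Srsf3 (261 CPM) and Srsf12 (39.0 CPM). Hnrnpa1 was not among them.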

How the results depend on the processing

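Hnrnpa1 kept its negative sign in all 21 alternatives, and the fold changes of the 10 members with the smallest p kept their signs in all of them apart from Srsf3, which was -0.0056 with 1 surrogate variable. Over the 31 members, between 18 and 31 kept the sign of the fit on all libraries, with the fewest under the surrogate variable. The count of members called lower was 1 instead of 0 with DESeq2, with limma-voom, without D50A 1 and D50A 3, and in that reduced set with GC and length offsets or with DESeq2, both chosen after seeing the data. Over all genes, calls higher and lower were 34 and 6 with DESeq2, 315 and 202 with limma-voom, 558 and 507 without D50A 1 and D50A 3, 616 and 763 there with offsets, and 460 and 541 there with DESeq2. The surrogate variable gave 1 gene higher. Leaving out 1 library at a time gave 0 to 26 genes higher, the 26 without D50A 1, and 0 lower. Of the companion lists, hnRNP relatives had 1 call with limma-voom, 2 in the reduced set, 3 there with offsets and 2 there with DESeq2, decay genes had 1 in each of the last 3 settings, and the core spliceosome and the regulators had 1 each in the reduced set with offsets. The median log2 fold change ran from -0.02 to 0.08 for the SR genes (0.05 on all libraries, -0.02 with GC and length offsets, -0.00015 without D50A 5), so its sign is not stable, and from -0.13 to -0.00 for the hnRNP genes. The cause of these differences was not tested. No paired analysis was possible because the replicate numbers follow accession order and the labels pair no samples. The lowest member value was 88 counts, for Srsf4 in D50A 3.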
